A study of Rhododendron with 15 samples.

Results

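MSTRG.14064 and MSTRG.14046 are 2 genes that the deposited annotation describes as metalloendoproteinases, out of 29985 genes counted in leaf RNA of 'xiaotaohong', an ornamental variety of Rhododendron. The pair was chosen by its FPKM (fragments scaled to gene length and library depth), which was high at 25 °C and close to 0 at 35 °C, so levels with heat are given here as a description and are not tested. PolyA RNA was sequenced from 5 groups of 3 libraries. A group at 25 °C received no melatonin, and leaves at 35 °C and at 40 °C were each sampled in a group without melatonin and a group with it. Melatonin is an indole that plants make from tryptophan. All groups share the variety and the tissue. Neither the dose of melatonin nor the duration of heat nor the age of the plants is stated in the labels. Whether replicates came from separate plants is not stated either, so p-values measure the spread between these libraries, which may be technical.

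Plant metalloendoproteinases of this type, also called matrix metalloproteinases, are zinc-dependent enzymes that cut proteins at internal bonds. They are made as precursors whose prodomain blocks the active site, and they act outside the cell, many of them anchored to the plasma membrane by a lipid. In Arabidopsis, a member of the family is known from mutants to take part in growth, flowering and the timing of leaf senescence, and in tomato and soybean members are known from defence and leaf expansion. The deposited annotation places both Rhododendron genes in the extracellular region and on a membrane anchor, with zinc binding and metalloendopeptidase activity. It also lists negative regulation of leaf senescence and responses to jasmonic acid and salt stress for them.

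MSTRG.14064 (gene name Rhsim08G0059300) lies on chromosome 8 from 6373705 to 6374637 on the minus strand, and MSTRG.14046 (Rhsim08G0061000) lies from 6636645 to 6637577 on the plus strand, in the coordinates of the deposited table. No genome build is named in the labels. Each locus spans 933 bases, and their starts are 262.94 kb apart. MSTRG.14046 overlaps no other gene of the table. MSTRG.14064 lies inside 2 long assembled loci, MSTRG.14056 of 132437 bases on the same strand and MSTRG.14049 of 187073 bases on the opposite strand. The libraries were built by a stranded dUTP method, but no source used here states which strand was counted, so reads of MSTRG.14064 cannot be told apart with certainty from those of the loci around it. Reads shared among close family members could also have been split between them.

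Library totals were 54300447 to 68267949 counts, and 26183 genes passed the count filter and were tested. As a check of the tissue, the summed FPKM of 12 leaf mesophyll markers, such as chlorophyll a-b binding proteins, was 19745 to 20690 in the 25 °C libraries, and all 12 were detected in every group. In heat without melatonin this mesophyll sum was 18795 to 19656 (35 °C) and 2692 to 2721 (40 °C), and with melatonin it was 16594 to 16657 (35 °C) and 14263 to 14408 (40 °C). The sum of 55 epidermis and cuticle genes was 1113 to 1243 at 25 °C. It was 600 to 618 (35 °C) and 109 to 116 (40 °C) without melatonin and 862 to 881 (35 °C) and 148 to 158 (40 °C) with it, with 4 to 16 of the 55 at 0 in a group. The sum of 15 phloem genes was 281 to 289 at 25 °C, 451 to 459 (35 °C) and 94.4 to 98.8 (40 °C) without melatonin, and 141 to 144 (35 °C) and 82.8 to 86.7 (40 °C) with it. The sum of 33 xylem genes was 61.4 to 65.6 at 25 °C, 45.9 to 46.6 (35 °C) and 41.8 to 46.8 (40 °C) without melatonin, and 63.0 to 66.1 (35 °C) and 43.0 to 44.3 (40 °C) with it. The guard cell list held 1 gene, at 0.362 to 7.29 FPKM over all libraries. In bulk leaf RNA, fewer cells of a type and less RNA per cell cannot be told apart, and the part of these marker shifts in the results below was not tested.

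MSTRG.14064 stood at 97.0, 87.9 and 84.3 FPKM in the 25 °C libraries, from 5486, 5058 and 4775 counts. At 35 °C without melatonin it was at 0.188, 0.259 and 0.0658 FPKM, from 13, 18 and 5 counts. At 40 °C without melatonin it was at 0.0317, 0.0944 and 0.0566 FPKM, from 2, 7 and 4 counts. Every heated library was thus far under every 25 °C library, while the 35 °C and 40 °C libraries overlapped each other. The mean at 25 °C was 89.7 ± 6.53 FPKM (SD, n = 3), which was 526 times the mean at 35 °C of 0.171 ± 0.0976 FPKM and 1474 times the mean at 40 °C of 0.0609 ± 0.0316 FPKM. With so few counts at 35 °C and 40 °C, these ratios are imprecise, and they describe how deep the gene stood rather than a tested change. The levels in every library of both genes are shown on a log scale in the plot of FPKM by library.

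**Figure D1:**
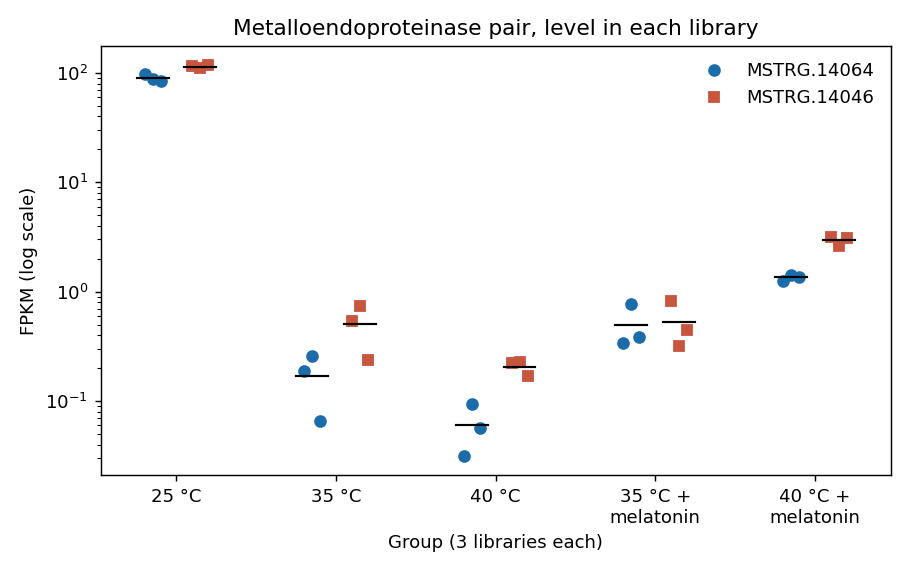
FPKM of MSTRG.14064 and MSTRG.14046 in each of the 15 libraries (points; logarithmic vertical axis), by group of temperature and melatonin on the horizontal axis, with lines at the group means. Both genes lie at 84.3 FPKM or more in all 25 °C libraries and at 3.19 FPKM or less in all heated libraries, and the libraries at 40 °C with melatonin are the highest of the heated ones.

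MSTRG.14046 stood at 115.6, 110.4 and 117.0 FPKM at 25 °C, from 6541, 6349 and 6628 counts. At 35 °C it was at 0.543, 0.744 and 0.236 FPKM, from 36, 50 and 17 counts, and at 40 °C at 0.222, 0.229 and 0.170 FPKM, from 14, 16 and 12 counts. Its 25 °C libraries were again far above all others, and its lowest 35 °C library was just above its highest 40 °C library. The group means were 114.3 ± 3.49, 0.508 ± 0.256 and 0.207 ± 0.0319 FPKM at 25, 35 and 40 °C (SD, n = 3), so that 0.444% of the 25 °C level was left at 35 °C and 0.181% at 40 °C. For MSTRG.14064 the shares left were 0.190% and 0.0678%. Among the 13259 genes with a mean of at least 5 FPKM at 25 °C, 9 had a smaller share left at 35 °C than MSTRG.14064 and 10 had a smaller share left than MSTRG.14046. At 40 °C, 134 and 169 genes had smaller shares left, in the same order. The ranks at 35 °C come from the same FPKM that chose the pair, so that choice largely fixed them.

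Only 12 of those 13259 genes were below 1% of their 25 °C level at 35 °C, and 10 of them were below 1% at 40 °C as well. That the pair is among the 12 largely follows from how it was chosen. The 8 of the 12 without a description include genes whose SD at 25 °C was above their mean, such as 200 ± 320 FPKM. The annotation describes 4 of the 12, namely the pair, MSTRG.12298 and MSTRG.21608, chosen here after their values were seen. MSTRG.12298, described as WAT1-related, a family named for an Arabidopsis transporter-like protein of the vacuole membrane, had 5.65 ± 0.0911 FPKM (SD, n = 3) at 25 °C and is listed at 0 at 35 °C and 40 °C. MSTRG.21608, described as boron transporter-like, had 22.1 FPKM at 25 °C and 0.215 FPKM at 35 °C. The pair had the highest 25 °C levels of these 4 described genes.

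With melatonin at 40 °C, both genes were above their level at 40 °C without it, though still far below 25 °C. MSTRG.14064 stood at 1.26, 1.43 and 1.35 FPKM with melatonin, from 78, 79 and 78 counts, and MSTRG.14046 at 3.19, 2.64 and 3.12 FPKM, from 197, 144 and 180 counts. For both genes all 3 libraries with melatonin were above all 3 without it. MSTRG.14064 rose by a log2 fold change of 4.09 ± 0.40 (SE; adjusted p = 5.5e-07 by edgeR's quasi-likelihood test with Benjamini-Hochberg adjustment over the 26183 genes), from a mean of 0.0609 to 1.35 ± 0.0892 FPKM. MSTRG.14046 rose by 3.57 ± 0.33 on the log2 scale (adjusted p = 2.79e-07 by the same edgeR test), to 2.98 ± 0.300 FPKM. Of all genes tested in this comparison, 59.1% were called at an adjusted p under 0.05, and 32.9% were called upward. The low levels at 40 °C without melatonin, the baseline here, were also known when the pair was chosen. These levels at 40 °C with melatonin were 1.50% of the 25 °C level for MSTRG.14064 and 2.61% for MSTRG.14046.

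At 35 °C the libraries with melatonin gave less. MSTRG.14064 was at 0.340, 0.764 and 0.382 FPKM with melatonin, from 21, 46 and 23 counts, all above the 3 libraries at 35 °C without it. Its log2 fold change was 1.36 ± 0.38 (SE; edgeR adjusted p = 0.0173), in a comparison that called 22% of all genes tested. The 35 °C libraries without melatonin, in which low FPKM chose the pair, are the baseline of this comparison, and a choice of low values favours a rise from them, so its p-value is not independent of the choice. That call rests on single libraries: without replicate 3 at 35 °C the log2 fold change was 0.97 (edgeR adjusted p = 0.0703), and without replicate 2 at 35 °C with melatonin it was 0.91 (adjusted p = 0.103). A fit to the 6 compared libraries alone gave 1.38 with an adjusted p of 0.192. MSTRG.14046 was at 0.823, 0.319 and 0.442 FPKM with melatonin, from 51, 19 and 26 counts, within the spread of the libraries without it. Its log2 fold change was -0.06 ± 0.34 (SE; edgeR adjusted p = 0.938), a difference not detectable at this depth.

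The step from 35 °C to 40 °C had opposite directions with and without melatonin in the group means of both genes. Without melatonin the means were lower at 40 °C than at 35 °C, with overlapping libraries for MSTRG.14064. With melatonin, all 3 libraries of each gene were higher at 40 °C than at 35 °C. This comparison uses none of the 25 °C and 35 °C libraries without melatonin whose FPKM chose the pair, though results of all 5 groups were known when it was chosen. MSTRG.14064 rose by a log2 fold change of 1.49 ± 0.28 (SE; edgeR adjusted p = 0.000436), from 0.495 ± 0.233 to 1.35 ± 0.0892 FPKM (SD, n = 3). MSTRG.14046 rose by 2.54 ± 0.29 (edgeR adjusted p = 3.02e-06), from 0.528 ± 0.263 to 2.98 ± 0.300 FPKM, where 54.7% of all genes tested were called, 27.3% upward and 27.5% downward. The melatonin effect itself was larger at 40 °C than at 35 °C, by 2.74 ± 0.61 on the log2 scale for MSTRG.14064 (SE; edgeR adjusted p = 0.00192) and by 3.63 ± 0.49 for MSTRG.14046 (edgeR adjusted p = 2.25e-05), where 48.5% of all genes had a called difference of this kind. These differences include the 35 °C libraries that chose the pair, so their p-values are not independent of the choice either. Both genes therefore had the same order of means, from 25 °C down through 40 °C with melatonin, 35 °C with melatonin and 35 °C to 40 °C. The neighbours in this order that overlapped in FPKM were 35 °C and 40 °C for MSTRG.14064, and 35 °C with and without melatonin for MSTRG.14046.

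The proportion between the genes also differed between groups. The FPKM of MSTRG.14064 divided by that of MSTRG.14046, which have the same length, was 0.720 to 0.839 in the 25 °C libraries. In heat it was 0.279 to 0.348 (35 °C), 0.143 to 0.413 (40 °C) and 0.394 to 0.544 (40 °C with melatonin), so that in all of these libraries the ratio was under that at 25 °C. At 35 °C with melatonin it was 0.413 to 2.40, since replicate 2 of that group was the highest for MSTRG.14064 and the lowest for MSTRG.14046. The opposite-strand locus MSTRG.14049, which spans MSTRG.14064, had means of 17.3 ± 3.94 FPKM at 25 °C, 3.93 ± 4.46 at 35 °C, 0.734 ± 0.782 at 40 °C, 8.24 ± 0.128 at 35 °C with melatonin and 10.2 ± 2.85 at 40 °C with melatonin (SD, n = 3). It had the same order of groups as MSTRG.14064, and its part in the reads of that gene was not tested.

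The annotation describes 30 genes of the table as metalloendoproteinases, and 23 of them, the pair included, lie within 669.45 kb of chromosome 8, from 6209116 to 6878565. That stretch holds 44 genes in all, and 16 of the 23 are on the minus strand. Among the 23 is the long locus MSTRG.14056, described both as a hypothetical protein and as a metalloendoproteinase. Its reads may thus not all be of the family. Of the 28 family genes other than the pair, 18 passed the count filter and 21 had their highest group mean at 25 °C. The pair accounted for most of the family's transcripts at 25 °C, where 7 of the other 28 reached a mean of 5 FPKM. The family list was chosen with results of these data known, so its direction with heat is not independent of the pair's selection.

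Most of the 18 tested family genes other than the pair fell with heat, and 0 of them rose. At 35 °C, 11 of the 18 fell and 0 rose (edgeR, adjusted p under 0.05), where 23.6% of all genes tested fell, and their median log2 fold change was -2.61 against 0.01 over all genes tested. At 40 °C, 15 fell and 0 rose, where 38.6% of all genes tested fell. MSTRG.14031 and MSTRG.14041, both among these 15, passed the count filter only through the 25 °C libraries, so their fall was built in. Both also enter the medians at both temperatures. The median at 40 °C was -5.68, or -4.89 with the 7 genes that had 0 counts in all 40 °C libraries set to a floor of 3 counts over the group, against -0.01 over all genes. At an unadjusted p under 0.05, 0 of the 18 were higher at either temperature, and DESeq2 and limma also called 0 higher. Without replicate 2 at 25 °C, MSTRG.14048, which had under 1 FPKM in all of these libraries, was called higher at both temperatures. Counted without a filter, 15 of all 28 genes had every 35 °C library below every 25 °C library and 0 the opposite, where 23.2% of all genes were below. At 40 °C the counts were 17 and 0, where 36.8% of all genes were below.

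**Figure D2:**
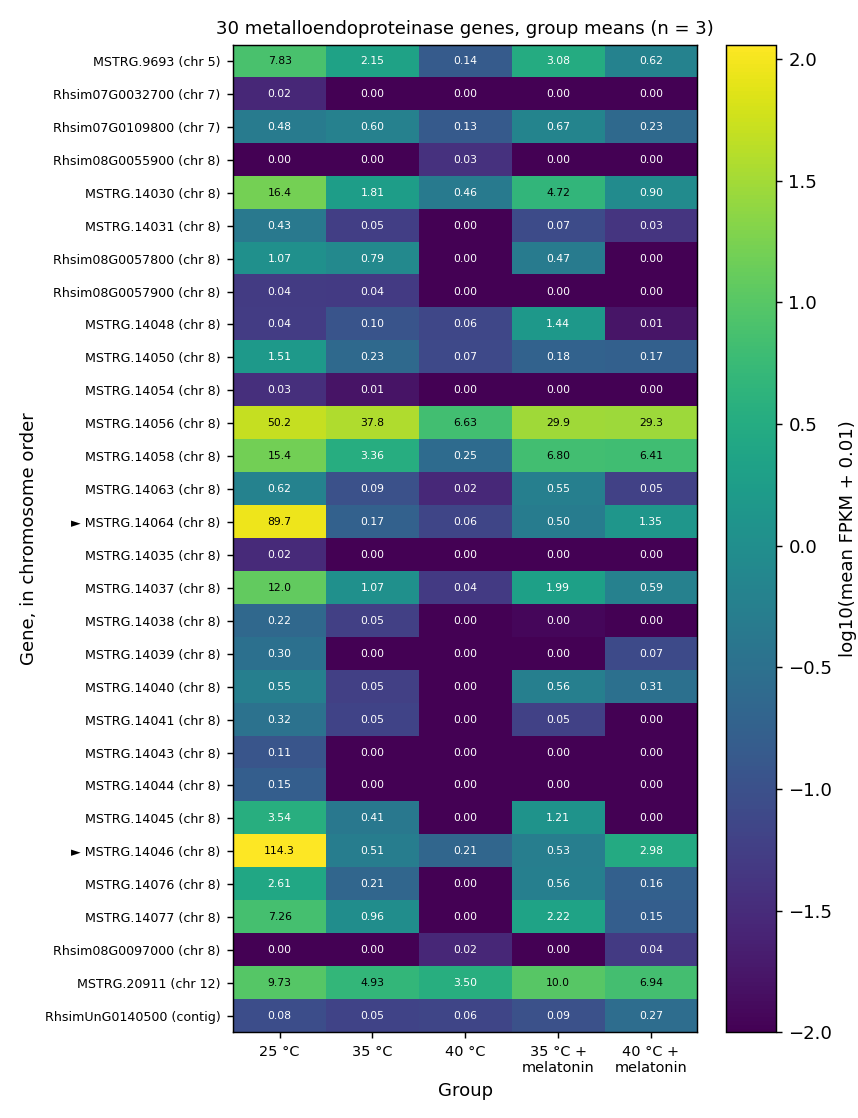
Mean FPKM (n = 3, printed in each cell) of the 30 metalloendoproteinase genes in chromosome order (vertical axis) in the 5 groups (horizontal axis), with colour giving log10(mean FPKM + 0.01) and arrowheads marking the pair. The pair has the 2 highest means at 25 °C, 89.7 and 114.3 FPKM, and stands at 0.171 and 0.508 FPKM at 35 °C, while the merged locus MSTRG.14056 is the highest in every heated group.

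The other 7 family members with at least 5 FPKM at 25 °C had a wide range of levels in heat. Their shares left at 35 °C ranged from 8.98% for MSTRG.14037 to 75.3% for MSTRG.14056, a merged locus that sums over 5 gene names, against 0.190% and 0.444% for the pair, whose low share was fixed by how it was chosen. MSTRG.14030 had 16.4 FPKM at 25 °C and 1.81 FPKM at 35 °C, and it fell by 3.24 on the log2 scale (edgeR adjusted p = 8.59e-06). MSTRG.14058 had mean levels of 15.4 FPKM at 25 °C, 3.36 at 35 °C and 0.250 at 40 °C, and it fell by 2.26 at 35 °C (edgeR adjusted p = 2.91e-06) and fell by 5.80 at 40 °C (adjusted p = 2.27e-10). MSTRG.20911 on chromosome 12, outside the stretch, had mean levels of 9.73, 4.93 and 3.50 FPKM at 25, 35 and 40 °C, and it kept 36.0% of its 25 °C level at 40 °C, the highest share among these 7 genes.

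With melatonin, the family genes that passed the edgeR test were higher at both temperatures, with exceptions in other fits at 35 °C. At 40 °C, 8 of the 18 rose and 0 fell, where 32.9% of all genes tested rose, and their median log2 fold change was 1.50, or 1.12 with genes at 0 set to the floor, against 0.10 over all genes. At an unadjusted p under 0.05, and in DESeq2 and limma, 0 were lower at 40 °C. Counted without a filter at 40 °C, 8 of all 28 genes had every library with melatonin above every library without it, and 0 the opposite. Of all genes, 38.9% were above and 21.5% below in this way, so the family's share above was under that of all genes. The 8 that rose were MSTRG.14037, MSTRG.14040, MSTRG.14056, MSTRG.14058, MSTRG.14076, MSTRG.14077, MSTRG.20911 and MSTRG.9693. At 35 °C, 5 of the 18 rose and 0 fell, where 9.7% of all genes tested rose, with a median of 0.84 against 0 over all genes. These were MSTRG.14030, MSTRG.14040, MSTRG.14045, MSTRG.14058 and MSTRG.20911. At an unadjusted p under 0.05, 8 were higher and 1 was lower. Counted without a filter at 35 °C, 10 of all 28 genes had every library with melatonin above every library without it, and 3 the opposite. Of all genes, 23.6% were above and 11.5% below. The called count was 2 to 4 when single libraries were left out. It was again 5 under RLE scaling and without the count filter. DESeq2, limma, the replicate block and the compared groups alone called more. The merged locus MSTRG.14056 was called lower in DESeq2 (adjusted p = 0.0183), with the replicate block (0.0352) and in the compared groups alone (0.00245), and Rhsim08G0057800 was called lower in limma with pseudocounts of 1 (0.0163) and 0.1 (0.0482). MSTRG.14058 rose at 40 °C by a log2 fold change of 4.43 ± 0.30 (SE; edgeR adjusted p = 8.81e-09), to a mean of 6.41 FPKM, and at 35 °C by 0.91 ± 0.24 (adjusted p = 0.013), to 6.80 FPKM. MSTRG.9693 on chromosome 5 had 0.138 FPKM at 40 °C and 0.620 with melatonin, and it rose by 1.83 (edgeR adjusted p = 0.0134). That call was lost in the compared groups alone (1.78, adjusted p = 0.152), and the value was 1.25 without replicate 1 and 2.83 without replicate 3 at 40 °C. MSTRG.14077, with 7.26 FPKM at 25 °C, had 0 counts at 40 °C and 0.150 FPKM there with melatonin. MSTRG.14045, with 3.54 FPKM at 25 °C, had 0 counts at 40 °C both without and with melatonin.

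In the step from 35 °C to 40 °C with melatonin, in which both members of the pair rose, 10 of the 18 other tested family genes fell and 0 rose, with a median log2 fold change of -1.66 (edgeR, adjusted p under 0.05, where 27.5% of all genes tested fell). Among the 10 was MSTRG.14048, which passed the count filter only through its libraries at 35 °C with melatonin, so its fall was built in. At an unadjusted p under 0.05, and in DESeq2 and limma, 0 of the 18 were higher. The number that fell was 6 to 10 when single libraries were left out, with 6 without replicate 2 at 40 °C with melatonin. Over all 28 other genes, 11 had every library at 40 °C with melatonin below every library at 35 °C with melatonin and 0 the opposite, where 31.7% and 26.5% of all genes did so. MSTRG.14030 fell by 2.32 in this step (edgeR adjusted p = 0.000162), from 4.72 to 0.895 FPKM. The other 8 did not pass the test, among them MSTRG.14058 with 6.80 and 6.41 FPKM in these groups (log2 fold change -0.02) and the merged locus MSTRG.14056 with 29.9 and 29.3 FPKM (0.03). The difference between the pair and each of the other genes in this step was not tested.

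The share of the family's summed FPKM that came from the pair was taken with the merged locus MSTRG.14056 left out of the sum. The drop of this share in heat was largely fixed by the choice of the pair as high at 25 °C and close to 0 at 35 °C. The pair held 70.7% to 72.4% of the sum in the 25 °C libraries. In heat without melatonin it held 1.86% to 5.85% (35 °C) and 3.90% to 6.54% (40 °C), and with melatonin 2.32% to 3.16% (35 °C) and 19.4% to 21.2% (40 °C). The 40 °C libraries with melatonin lay between the 25 °C libraries and all other heated libraries, and did not overlap either. With the merged locus kept in the sum, the pair held 60.6% to 61.3% at 25 °C and 8.43% to 8.70% at 40 °C with melatonin. In the other heated libraries the pair then held 2.66% or less. The summed level of the other 27 genes was 80.8 ± 4.49 FPKM at 25 °C, 17.0 ± 1.74 at 35 °C, 4.78 ± 1.03 at 40 °C, 34.7 ± 1.58 at 35 °C with melatonin and 16.9 ± 1.71 at 40 °C with melatonin (SD, n = 3). The summed level of the pair was 204 ± 7.52, 0.679 ± 0.354, 0.268 ± 0.0497, 1.02 ± 0.177 and 4.33 ± 0.222 FPKM in the same groups. The others thus kept 43.0% of their 25 °C sum at 35 °C with melatonin, and the pair 0.501%, a gap that the choice of the pair favours.

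**Figure D3:**
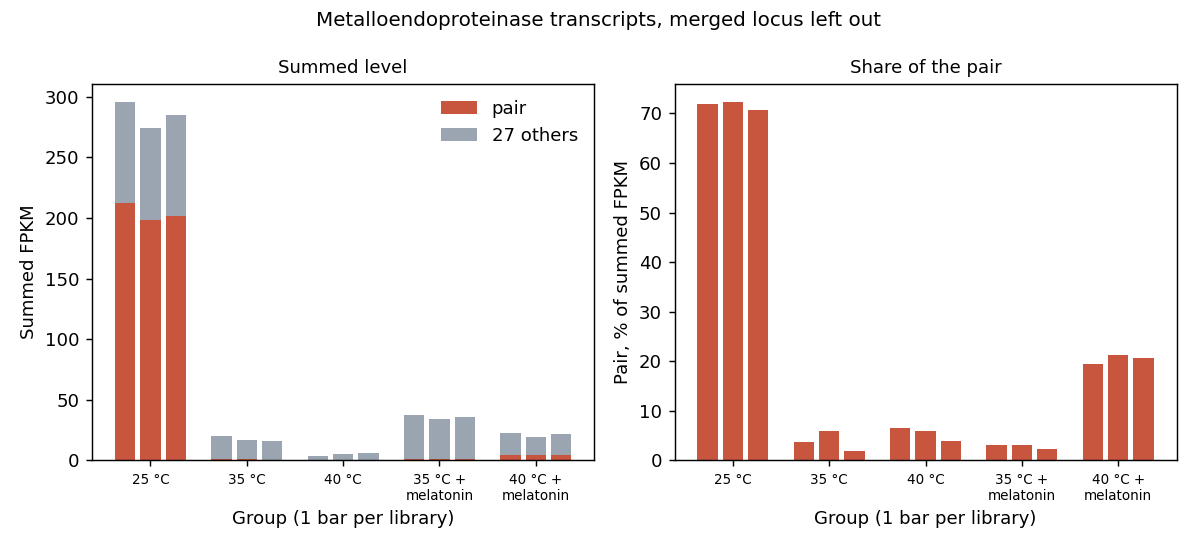
Left, summed FPKM of the pair (red) and of the 27 other metalloendoproteinase genes (grey) in each library (1 bar per library) by group, with the merged locus left out; right, the pair's percentage of that sum. The bars of the pair's share lie at 70.7% to 72.4% at 25 °C and 19.4% to 21.2% at 40 °C with melatonin, and at 6.54% or less in the other heated libraries.

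Genes around the pair that are not of the family were called in both directions in heat. The 13 genes between the members and the 10 nearest beyond each of them, by start position, make 33 neighbours. Of these, 14 are in the family list and 19 are not. Among the 19 is 1 gene described as a peptidase M10, metallopeptidase, that the search for the family did not match. It did not pass the count filter. MSTRG.14049, which contains MSTRG.14064, starts further away and is left out. It is not in the family list, and its means were 17.3, 3.93 and 0.734 FPKM at 25, 35 and 40 °C. Of the 8 tested family neighbours, 6 fell at 35 °C and 8 at 40 °C, and 0 rose in either (edgeR, adjusted p under 0.05). These 8 include MSTRG.14041, which passed the count filter only through the 25 °C libraries. Of the 16 tested neighbours outside the family, 1 rose and 1 fell at 35 °C, and 5 rose and 5 fell at 40 °C, with median log2 fold changes of 0.13 and 0.38. The background for these counts is 49.1% of all genes called in either direction at 35 °C and 75.9% at 40 °C.

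**Figure D4:**
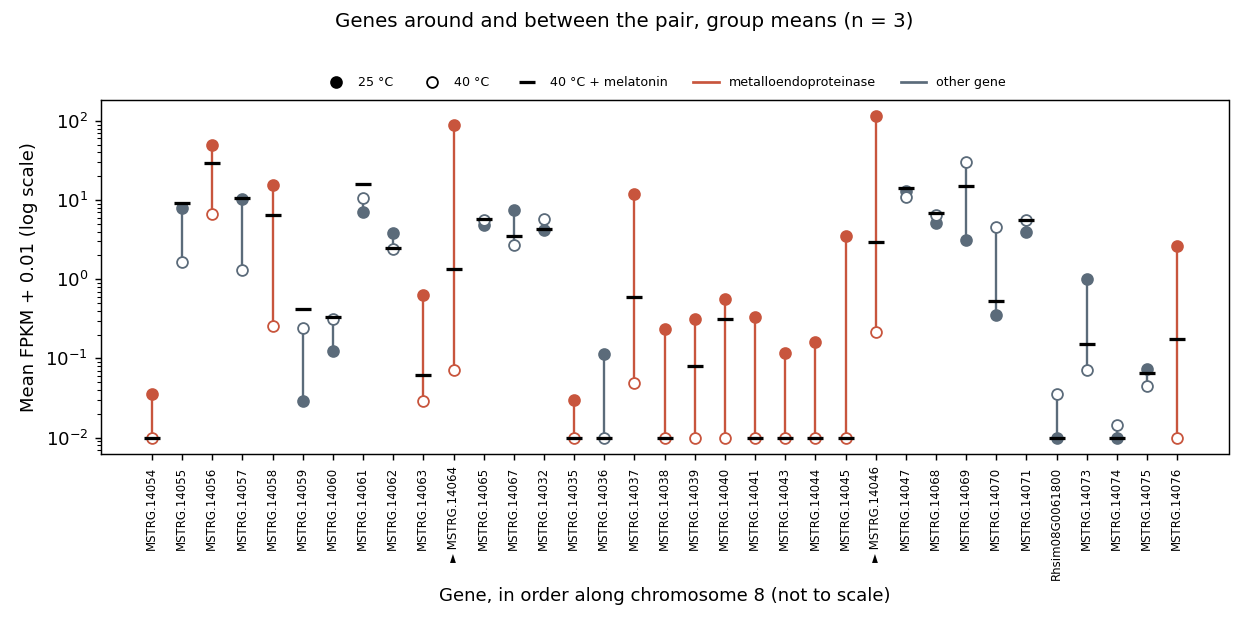
Mean FPKM + 0.01 (n = 3, logarithmic vertical axis) at 25 °C (filled circles), 40 °C (open circles) and 40 °C with melatonin (dashes) for the pair (arrowheads) and their 33 neighbours, in their order along chromosome 8 and not to scale. Metalloendoproteinase genes (red) have the open circle below the filled one, and other genes (grey) have it on either side.

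The neighbours outside the family differed among themselves. MSTRG.14069, described as a stress-associated protein with an AN1 zinc finger, a type of protein known from stress responses in rice, rose from 3.15 to 30.0 FPKM at 40 °C (log2 fold change 3.34, edgeR adjusted p = 2.89e-08). It fell by 1.18 with melatonin at 40 °C, to 15.1 FPKM (adjusted p = 0.000745). MSTRG.14070, described as like the catalytic chain of ferredoxin-thioredoxin reductase, an enzyme that passes electrons from photosynthesis to thioredoxins, rose from 0.345 to 4.60 FPKM at 40 °C (edgeR adjusted p = 4.76e-07) and fell by 3.28 with melatonin, to 0.526 FPKM (adjusted p = 3.08e-06). MSTRG.14055, described as a sentrin-specific protease, an enzyme that removes the small modifier SUMO from proteins, had mean levels of 7.97 FPKM at 25 °C, 1.66 at 40 °C and 9.21 at 40 °C with melatonin, and it fell by 2.18 with heat at 40 °C and rose by 2.29 with melatonin (edgeR adjusted p = 0.00142 and 0.00145). MSTRG.14057, described as a hypothetical protein, had 10.3 FPKM at 25 °C, 1.31 at 40 °C and 10.6 at 40 °C with melatonin. It fell by 2.89 with heat at 40 °C and rose by 2.83 with melatonin (edgeR adjusted p = 2.89e-06 and 6.46e-06). Of the 16 tested neighbours outside the family, 3 rose and 2 fell with melatonin at 40 °C, where 32.9% and 26.2% of all genes tested did so. MSTRG.14047, which has no description and lies next to MSTRG.14046, had 12.9 FPKM at 25 °C, 20.1 at 35 °C and 10.9 at 40 °C, and was the neighbour that rose at 35 °C.

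Other protease families had members on both sides of the test with heat. Of 39 tested subtilisin-like proteases, serine proteases that plants secrete in large number, 10 rose and 23 fell at 40 °C, with a median log2 fold change of -2.01. Of 45 tested aspartic proteases, 10 rose and 25 fell, with a median of -1.44, and of 26 serine carboxypeptidases, 6 rose and 16 fell, with a median of -1.41. Papain-type cysteine proteases, which act in the vacuole and in senescence, had 13 of 33 higher and 10 lower at 40 °C, with a median of 0.42. Of the 10 FtsH proteases, metalloproteases of chloroplast and mitochondrial membranes that are not of the matrix type, 3 rose and 6 fell, with a median of -0.44. For all of these the background at 40 °C is 37.3% of genes tested called higher and 38.6% lower.

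With melatonin at 40 °C, 19 of the 39 subtilisin-like proteases rose and 7 fell, and 15 of the 26 serine carboxypeptidases rose and 4 fell, with medians of 0.60 and 1.01. The cysteine proteases had 6 higher and 12 lower, with a median of -0.39. The aspartic proteases had 19 higher and 14 lower, with a median of 0.35, and the FtsH proteases 7 higher and 1 lower. The background here is 32.9% of genes tested called higher and 26.2% lower.

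Among 11106 described genes with at least 5 FPKM in some group, some were highly correlated with the pair over the 15 libraries. Likeness was taken as Pearson's r of log2(FPKM + 1) over the libraries, which share the groups and so mostly carry the contrast of 25 °C with the rest. The members had r = 0.992 with each other, which their shared choice as high at 25 °C and near 0 in heat largely fixes, and 38 genes for MSTRG.14064 and 30 for MSTRG.14046 had r above 0.95. The WAT1-related MSTRG.12298 came first for MSTRG.14064 (r = 0.995), ahead of MSTRG.14046, but MSTRG.14046 came first with a pseudocount of 0.1 (r = 0.984, with MSTRG.12298 at 0.975). After these came MSTRG.23589, described as like a PAPS reductase of sulfur metabolism (r = 0.986). MSTRG.23589 had 582 FPKM at 25 °C and 46.1, 59.1, 63.0 and 59.9 FPKM at 35 °C, 40 °C, 35 °C with melatonin and 40 °C with melatonin. Next came MSTRG.5171, a triosephosphate isomerase of glycolysis (r = 0.982). Rhsim02G0213700, described as the transcription factor WRKY40, and MSTRG.10080, a large proline-rich protein, followed (r = 0.981 for each). A high r does not mean a like depth of fall. MSTRG.5171 had a mean of 71.4 FPKM at 25 °C and means of 34.4 to 42.1 in the heated groups. MSTRG.10080 had 52.3 FPKM at 25 °C and 28.3 to 31.4 in the heated groups.

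For MSTRG.14046, the genes most like it after MSTRG.14064 were MSTRG.11895, described as a feruloyl CoA ortho-hydroxylase, an enzyme of coumarin synthesis (r = 0.989), and MSTRG.12298 and MSTRG.5171 (r = 0.988 for each). MSTRG.11895 had 9.37 FPKM at 25 °C, 0.420 at 35 °C, 0.0150 at 40 °C, 0.104 at 35 °C with melatonin and 1.04 at 40 °C with melatonin, the same highest heated group as the pair. MSTRG.21434, described as a (6-4) photolyase, a light-driven DNA repair enzyme, followed (r = 0.987), with 8.97 FPKM at 25 °C, 0.979 at 40 °C and 2.48 at 40 °C with melatonin. The last was MSTRG.14468, a pheophytinase of chlorophyll breakdown (r = 0.977). These 2 lists of 6 shared MSTRG.12298 and MSTRG.5171, and they depend on the measure. By root mean squared difference from the 25 °C mean, 1 of 6 genes was the same for each member. That 1 was the other member of the pair, so no gene outside the pair stayed in either list.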

How the data were processed

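The submitters' processing notes name the tools StringTie 1.3.4d, HISAT2 2.0.4 and cutadapt 1.9 without saying what each did. They and the file headers name no genome build. Counts and FPKM values stand side by side for each gene and library, per the file headers. The counts deposited by the authors were whole numbers without normalization; 58.8% to 63.0% of counts from 1 to 20 were even, as where both mates are counted. The FPKM values deposited by the authors are per length and depth, and served for levels. The table has 6 further per-sample columns that fit no labelled sample, and these were left out.

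Tests used edgeR 4.0.16 in R 4.3.3 on the counts (quasi-likelihood, TMM scaling, filterByExpr, 5 group means, 10 residual degrees of freedom), two-sided, adjusted by Benjamini-Hochberg over 26183 genes and called at adjusted p under 0.05. limma 3.58.1, DESeq2 1.42.0, other scaling and filter settings, fits to the compared groups, a replicate block and leaving out each library were alternatives. Replicates differed by more than sampling noise in every pair.

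The members, family list and other lists were chosen with earlier results of these data known. Genes open to naming were the members, every family gene, neighbours (10 on each side and those between) with at least 1 FPKM in a group, and the 6 genes most like each member in log2(FPKM + 1). The text names only part of the family genes and neighbours, and the figures show all of them. Outside this rule, MSTRG.14049 is named because it overlaps MSTRG.14064, and MSTRG.21608 was named after its values were seen. No sequences of these genes were used here.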

Additional observations from a re-analysis of the deposited data

Results flagged for a closer look

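For the pair and 6 of the 18 other tested metalloendoproteinase genes, the melatonin effect differed between 40 °C and 35 °C. This was by a test of the difference itself (edgeR's quasi-likelihood test, Benjamini-Hochberg adjustment over 26183 genes). Of all genes tested, 48.5% were called, so the other family genes were called no more often than genes in general. For the pair, the effect at 40 °C minus that at 35 °C was 2.74 on the log2 scale for MSTRG.14064 (adjusted p = 0.00192) and 3.63 for MSTRG.14046 (adjusted p = 2.25e-05), though the 35 °C libraries in this difference also chose the pair. MSTRG.14058 had 3.52 (adjusted p = 2.37e-06), the merged locus MSTRG.14056 had 2.40 (adjusted p = 4.82e-07) and MSTRG.14037 had 2.81 (adjusted p = 0.0247). The size for MSTRG.14037 is poorly measured, since its 40 °C libraries without melatonin held 0, 8 and 0 counts. Its melatonin effect at 40 °C ranged from 2.98 to 8.11 on the log2 scale without single libraries. MSTRG.14076 had 5.12 (adjusted p = 0.00775) and MSTRG.14077 had 5.11 (adjusted p = 0.00929), but both had 0 counts at 40 °C without melatonin, so these fitted sizes depend on the prior count and are no bounds. MSTRG.14048 went the other way, with -6.08 (edgeR adjusted p = 0.023). Its mean levels were 0.103 FPKM at 35 °C, 1.44 at 35 °C with melatonin, 0.0618 at 40 °C and 0.0073 at 40 °C with melatonin. It passed the count filter only through its libraries at 35 °C with melatonin, from 82, 91 and 86 counts, so a negative difference was built in. Every other library had 14 counts of it or fewer. No cause of these differences was tested.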

How the results depend on the processing

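The rises of both members with melatonin at 40 °C, in the step from 35 °C to 40 °C with melatonin, and in the difference between the melatonin effects kept their direction and call under every alternative run. Leaving out single libraries gave log2 values of 3.77 to 4.56 and 3.42 to 3.65 for the first, 1.27 to 1.94 and 2.28 to 3.02 for the second, and 2.27 to 3.19 and 3.21 to 4.11 for the third, for MSTRG.14064 and MSTRG.14046 in turn. Sizes were smaller in limma on log2(FPKM + 1), at 1.15 and 1.72 for melatonin at 40 °C.

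The rise of MSTRG.14064 with melatonin at 35 °C lost its call in the compared groups alone (1.38, adjusted p = 0.192) and ranged from 0.91 to 1.79 without single libraries. MSTRG.14046, not called there, changed sign in limma with pseudocounts of 1 (0.020) and 0.1 (0.066) and without single libraries (-0.54 to 0.33). At 35 °C with melatonin, 5 called family genes became 8 in DESeq2, 11 and 10 in limma, 8 in the compared groups alone and 2 to 4 without single libraries. There, 5 called neighbours became 3 under RLE scaling, 3 without the count filter and 1 to 3 without single libraries. At 40 °C with melatonin, 8 called family genes became 5 in the compared groups alone, and 6 and 10 in limma with pseudocounts of 1 and 0.1. The 8 neighbours called at 35 °C without melatonin became 5 to 9 without single libraries. The cause was not tested. RLE scaling changed the split of all genes called with melatonin at 40 °C from 8605 higher and 6861 lower to 7810 and 7499. limma with a pseudocount of 0.1 put the median of all genes at 0.27 there.

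Same-numbered libraries did not deviate together (correlations -0.06 to 0.03 over 30 pairs), so no pairing by number was seen. A weak shared source, such as a plant or day, could leave such values, and the labels state none. With the replicate block, MSTRG.14064 and MSTRG.14046 had 1.35 and -0.08 for melatonin at 35 °C, 4.11 and 3.57 at 40 °C, 1.51 and 2.56 for the step, and 2.76 and 3.64 for the difference, and no call of either changed. The few counts of the pair in heated libraries limit every ratio there.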
